A study of Mus musculus with 18 samples.

Results

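The difference between DECP and DECN light zone germinal centre B cells was compared between 24 h and 12 h after anti-DEC205-OVA. For each gene, DECP minus DECN at 12 h was subtracted from DECP minus DECN at 24 h on log2(TPM + 1), so a positive value is a difference that was higher at 24 h. The members are the 14 DECP and DECN libraries not treated with rapamycin, of 18 in the series. The groups were DECP at 24 h (4 libraries), DECN at 24 h (4), DECP at 12 h (3) and DECN at 12 h (3). Both kinds of cell are B1-8hi, with an antigen receptor for the hapten NP, and were transferred together into C57BL/6 hosts primed 2 weeks before with OVA in alum. DECP cells (15% of the mixture) are Ly75+/+ and CD45.1, and DECN cells (85%) are Ly75-/- and CD45.1/2. NP-OVA was given in the footpads, and on day 6 an antibody to DEC205, the endocytic receptor that Ly75 encodes, brought OVA to the cells that carry it. All were sorted from the popliteal lymph node as B220+ CD38- CD95+ cells with high CD83 and low CXCR4. The ages of the animals are not given in the sources used here.

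A germinal centre B cell that presents more antigen to follicular helper T cells receives more CD40 and cytokine signals. Such help is known to activate NF-kB and MYC, to raise ribosome and nucleotide synthesis, and later to send cells into division in the dark zone. The contrast of the times asks which parts of the DECP difference came early and had gone by 24 h, and which came late.

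Values are TPM, transcript abundance per length scaled to 1 fixed sum per library, and read depth per library is unknown. The protocol text speaks of biological replicates but counts conditions and replicates that do not match these libraries, so p-values measure the spread between libraries, which may be technical. The 24 h and 12 h libraries were deposited in separate sheets that differ in composition, and time and sheet cannot be told apart. Genes with a TPM of at least 1 numbered 11128 to 12033 per library at 24 h and 13114 to 13597 at 12 h. Ly75 itself stood at 14.8, 18.1, 13.1 and 10.3 TPM in DECP and 4.91, 5.72, 6.66 and 2.76 TPM in DECN cells at 24 h. The 12 h values were 39.6, 32.2 and 26 TPM in DECP and 10.2, 8.53 and 9.52 TPM in DECN cells. The DECP libraries were higher at both times without overlap (two-sided exact permutation p = 0.02857 at 24 h and 0.1 at 12 h, the smallest that 4 against 4 and 3 against 3 libraries allow), and Ly75 RNA was not absent from DECN cells. Whether those reads fall outside the deleted part of the gene was not tested. Germinal centre B cell markers were present in every group, and of the macrophage markers Adgre1, C1qa, C1qb and C1qc were at 0 in all DECP libraries at 24 h. The summed macrophage markers, nearly all Apoe, were lower in DECP than in DECN cells at both times (411 to 622 against 1030 to 1129 TPM at 24 h, 674 to 838 against 1275 to 1662 TPM at 12 h). The difference between the times for Apoe was -0.16 (adjusted p = 0.8629). Other macrophage markers were mixed. C1qb and C1qc had negative log2 differences at both times, while Cd68 had 0.32 and -1.31, Mertk -0.01 and 0.19, and Lyz2 -0.58 and 0.05 at 24 h and 12 h. Summed T cell markers, mainly Lck, were also lower in DECP cells (108.6 to 135.5 against 138.5 to 188.2 TPM at 24 h, 169 to 180.3 against 210 to 240.7 TPM at 12 h), though Cd3d was higher at 24 h (1.29). The part of such RNA in the results was not tested.

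Of 30452 genes in the sheets, 14733 reached a TPM of at least 1 in 3 or more libraries and were tested. The difference changed between the times for 59 genes (0.4% of those tested, limma with an intensity trend, Benjamini-Hochberg adjusted p below 0.05). It was lower at 24 h for 44 genes (0.299%) and higher at 24 h for 15 (0.102%). For 51 of the 59 the difference was larger in size at 12 h, and for 8 it was larger at 24 h. Of the 44, 27 were higher in DECP cells at both times in sign and past the threshold at 12 h only, 13 had turned to the opposite sign at 24 h with a call at 12 h only, 3 were past the threshold at 24 h only, and 1 at both times. Of the 15, 10 were past the threshold at 12 h only and 5 at 24 h only. Of all 59, 28 were cytosolic ribosomal protein genes, and 10 were pseudogenes or genes named Gm or Rik. In bulk RNA, fewer cells with a transcript and less of it per cell cannot be told apart.

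The single times gave longer lists. At 24 h DECP cells differed from DECN cells in 395 genes (2.68%), with 260 higher (1.76%) and 135 lower (0.916%). At 12 h they differed in 878 (5.96%), with 597 higher (4.05%) and 281 lower (1.91%). The lists shared 159 genes, which is 40.3% of the 24 h calls and 18.1% of the 12 h calls, and all 159 had the same direction. Across the 14733 genes the 2 differences, which share no library, had a Pearson r of 0.319 and a Spearman rho of 0.318, as a description, since genes are not independent. Leaving out 1 library gave 20 to 75 genes between the times, and the count of 59 moved by more than 1.5-fold without DECP 24 h replicate 2, 3 or 4 (30, 30 and 23 genes), DECN 24 h replicate 1, 2 or 4 (34, 20 and 24), or DECN 12 h replicate 1 or 3 (23 and 28). The 24 h count was 209 and 263 without DECP 24 h replicate 1 and 3, and 261 and 259 without DECN 24 h replicate 2 and 4. The 12 h count was 582 without DECP 12 h replicate 3, and 546 and 536 without DECN 12 h replicate 1 and 2. Without the intensity trend 5 genes passed between the times, and of the 22 genes named by rule below as changed between the times only Sap18b was among them. With a separate fit for each sheet 12 of the 22 lost the call (Id3, Junb, Nfkb2, Nras, Pef1, Rpl37, Rps10, Rps24, Rpusd4, Sap18b, Tfam and Yod1). With TPM rescaled without ribosomal protein genes 5 of the 16 others passed (Ccdc34, Eef1b2, Erdr1, Nfkbia and Sap18b), and Fcer2a, Id3, Junb, Nfkb2, Nras, Pef1, Rpusd4, Tenm1, Tfam, Tlr6 and Yod1 did not.

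**Figure D1:**
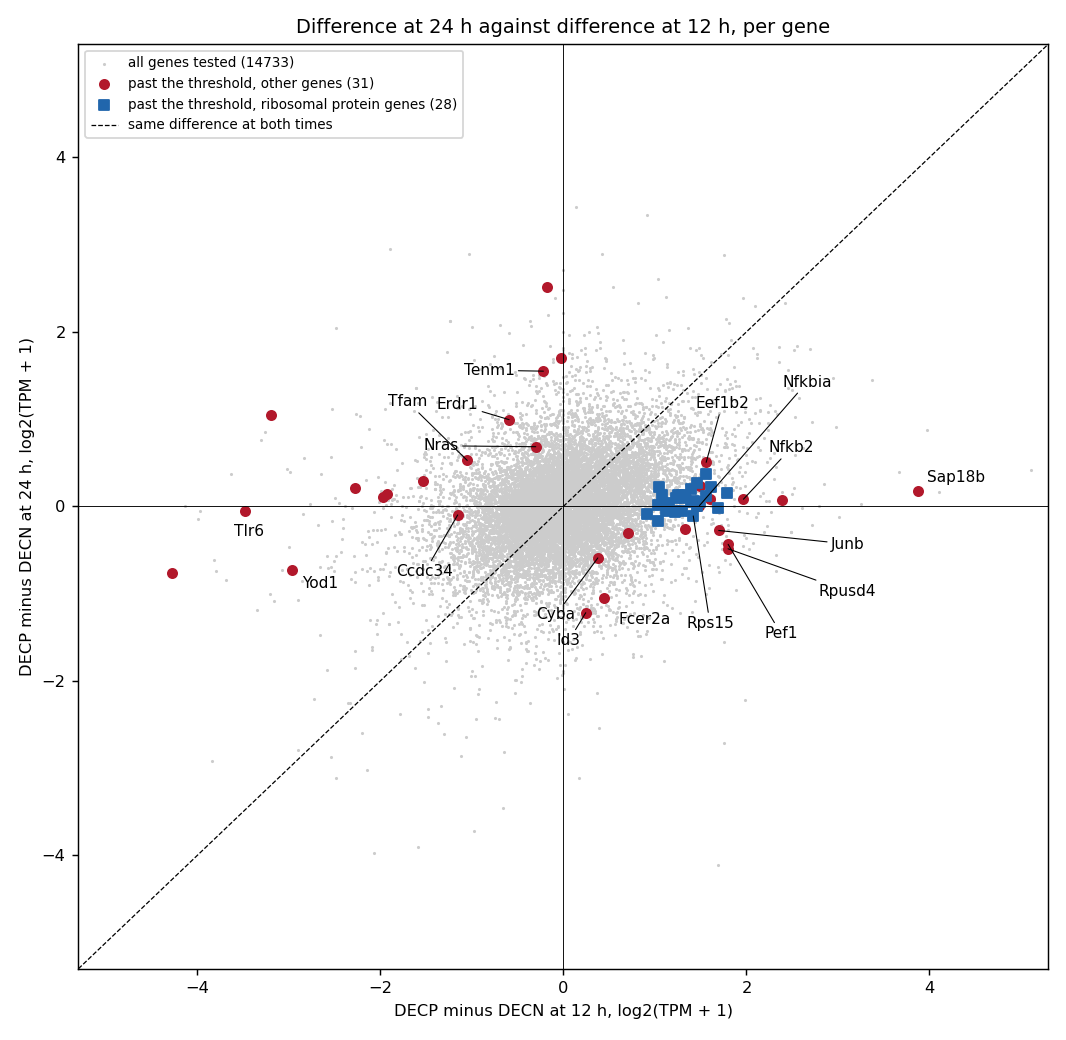
Each point is 1 of 14733 genes, with DECP minus DECN on the log2(TPM + 1) scale at 12 h on the horizontal axis and at 24 h on the vertical axis. Coloured points are the 59 genes whose difference changed between the times, blue squares being the 28 ribosomal protein genes, which lie near 0 at 24 h and between about 0.9 and 1.8 at 12 h. The dashed line marks the same difference at both times.

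Nfkbia, Nfkb2 and Junb, genes switched on by CD40 signalling, rose in DECP cells at 12 h and did not pass the threshold at 24 h. Nfkbia (ENSMUSG00000021025, chromosome 12, 55489410 to 55492647, reverse strand) encodes the inhibitor that holds NF-kB in the cytoplasm and is itself switched on by NF-kB. At 24 h it measured 162, 171, 213 and 165 TPM in DECP cells, against 179, 202, 161 and 163 TPM in DECN cells. Its 12 h values were 231, 266 and 277 TPM in DECP cells, against 97.2, 88.8 and 88 TPM in DECN cells. The groups overlapped fully at 24 h and stood apart at 12 h. Its log2 difference was 0.01 (SE 0.13, adjusted p = 0.9933) at 24 h and 1.49 (SE 0.15, adjusted p = 9.324e-05) at 12 h, and the difference between the times was -1.48 (SE 0.20, adjusted p = 0.00869). The call held without each of the 14 libraries in turn (adjusted p 0.009866 to 0.03024).

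Nfkb2 (ENSMUSG00000025225, chromosome 19, 46304320 to 46312385, forward strand), a precursor subunit of the non-canonical pathway that CD40 engages, followed the same course at a lower level. It measured 26.3, 14, 20.3 and 15.1 TPM in DECP and 19, 19.1, 13.3 and 18.5 TPM in DECN cells at 24 h. At 12 h the values were 32.9, 25.6 and 34.2 TPM in DECP and 9.33, 6.42 and 5.94 TPM in DECN cells, so that the highest DECN library lay below the lowest DECP library. Its log2 difference was 0.08 (adjusted p = 0.9305) at 24 h and 1.97 (adjusted p = 0.001062) at 12 h, with -1.89 (SE 0.37, adjusted p = 0.04372) between the times. Junb (ENSMUSG00000052837, chromosome 8, 84974484 to 84978718, reverse strand) encodes a subunit of the AP-1 transcription factor and is an immediate early gene. In the 24 h libraries it measured 83.2, 65.2, 74.1 and 51.7 TPM in DECP and 99.9, 71.5, 69.3 and 91.1 TPM in DECN cells. In the 12 h libraries it measured 54.7, 46.8 and 78.2 TPM in DECP and 22.3, 19.5 and 12 TPM in DECN cells. Again the groups overlapped at 24 h and not at 12 h, and the difference between the times was -1.97 (SE 0.36, adjusted p = 0.02925). The calls of Nfkb2 and Junb were less firm than that of Nfkbia: that of Nfkb2 was lost without any 1 of 11 libraries (highest adjusted p = 0.1185) and that of Junb without any 1 of 9 (highest adjusted p = 0.07631). Of 21 measured immediate early genes Junb was the 1 that changed between the times by limma, beside 0.299% of all genes lower at 24 h. When the authors' deposited tables were subtracted 2 of 19 were lower and 0 higher, beside 171 and 66 of 11675 genes. The list's median was -0.55 at 24 h, -0.17 at 12 h and -0.50 between the times. At 24 h 0 rose and 2 fell (Dusp2 and Btg2), beside 1.76% and 0.916% of all genes. At 12 h 1 rose (Junb) and 1 fell (Btg2, -0.82, adjusted p = 0.02239), beside 4.05% and 1.91%. The orphan receptor gene Nr4a1 had -0.07 (adjusted p = 0.9666) at 24 h and -1.42 (adjusted p = 0.08046) at 12 h.

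Over the whole list of 30 measured CD40 and NF-kB response genes, 2 changed between the times by limma (Nfkbia and Nfkb2, both lower at 24 h), beside 0.299% of all genes. At an unadjusted p below 0.05, 14 were lower and 0 higher, beside 793 and 710 of 14733 genes. When the authors' deposited tables were subtracted 7 of 29 were lower and 0 higher, beside 171 and 66 of 11675 genes. The median difference between the times was -0.87 for the list and 0.02 for all genes, and 28 of the 30 lay below 0, beside 7110 of 14733 genes. The list's median was -0.13 at 24 h and 0.74 at 12 h. At 24 h 1 rose (Batf) and 0 fell, beside 1.76% and 0.916% of all genes. At 12 h 7 of its genes rose and 0 fell, beside 4.05% and 1.91%. The 7 were Nfkbia, Nfkb2, Batf, Nfkbib (0.92, adjusted p = 0.03235), which encodes another NF-kB inhibitor, Tnfrsf8 (2.94, adjusted p = 0.002171), which encodes CD30, and the survival genes Bcl2a1b (1.05, adjusted p = 0.02259) and Bcl2a1d (1.54, adjusted p = 0.002132). Tnfaip3, which encodes the NF-kB brake A20, had a log2 difference of -0.71 (adjusted p = 0.3979) at 24 h and 1.32 (adjusted p = 0.09933) at 12 h. The subunit genes Rela, Nfkb1 and Rel had differences between the times of -0.12, -0.24 and -0.34, none past the threshold. The survival genes come from a family of near-identical copies, so their reads may be divided wrongly among them.

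The promoters of Nfkbia and Nfkb2 hold matches to a kappaB motif, and the stretches around them are shown because these are the NF-kB genes that changed. Sequences are RefSeq's, on GRCm38.p6, 5′ to 3′ on the gene's strand, with the match in capitals (GGG, any 2 bases, then TTTCC, on either strand).
Nfkbia (chr12:55492642-55492701, reverse strand): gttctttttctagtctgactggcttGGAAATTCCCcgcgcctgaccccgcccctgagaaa
Nfkb2 (chr19:46304701-46304760, forward strand): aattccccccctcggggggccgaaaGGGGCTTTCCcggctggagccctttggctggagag
Nfkb2 (chr19:46305680-46305739, forward strand): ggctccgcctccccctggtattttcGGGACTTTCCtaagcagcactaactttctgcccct
In the table of promoters, 250 bases before to 50 after a start, 29 of the 44 genes lower at 24 h and 10 of the 15 higher at 24 h were found. Of the 14 promoters of genes lower at 24 h other than ribosomal protein genes, 4 held this motif (28.6%), all of Nfkbia and Nfkb2 and in part overlapping, beside 1.63% of all 32851 promoters. An AP-1 motif, TGANTCA on either strand, was in 3 of the 14 (21.4%, promoters of Fcer2a and Nfkb2) and in 7.81% of all. A match is a run of letters and not a shown binding site.

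**Figure D2:**
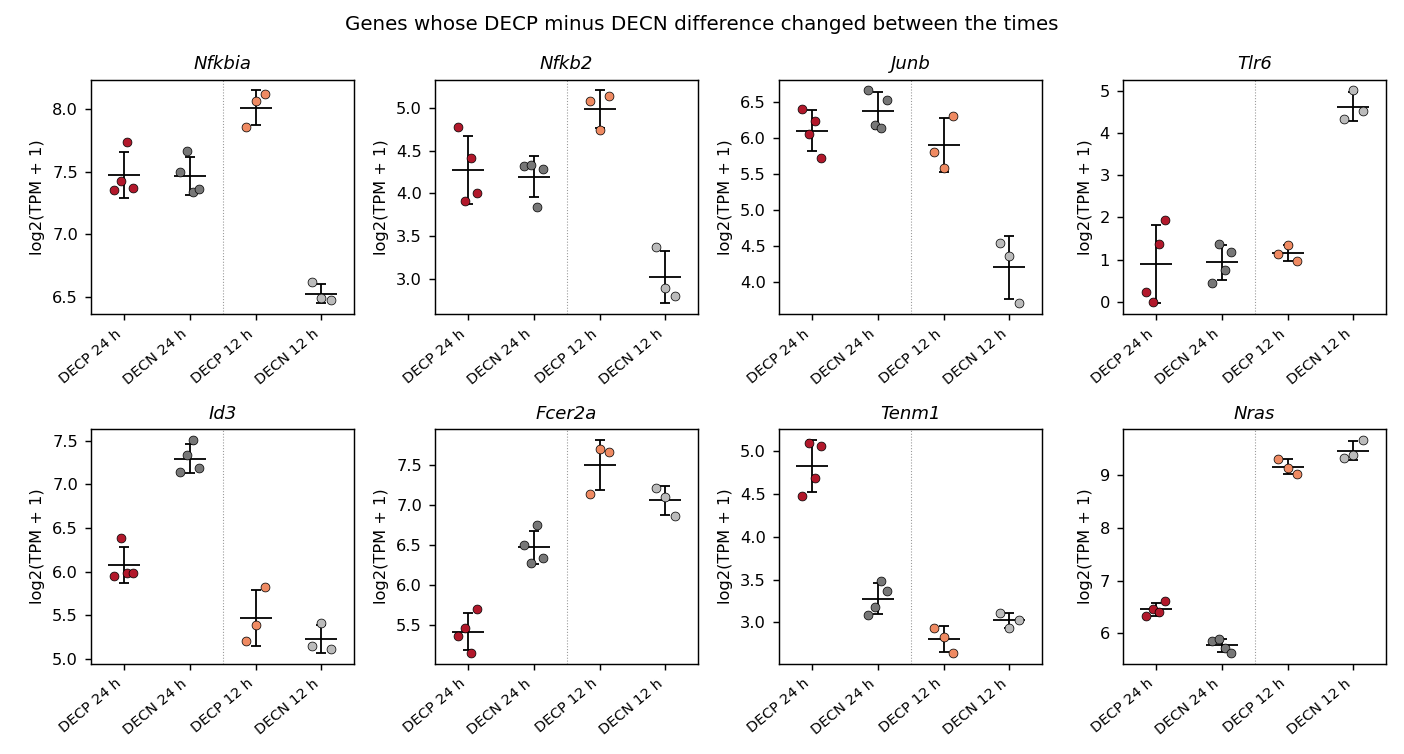
Each point is 1 library, on the log2(TPM + 1) scale, for 8 genes whose difference changed between the times. Bars are the mean and SD of a group, with the 24 h groups left of the dotted line and the 12 h groups right of it, and DECP left of DECN. In Nfkbia, Nfkb2, Junb and Tlr6 the groups separate at 12 h only, in Id3, Fcer2a and Tenm1 at 24 h only, and in Nras at both times in opposite directions. Levels are not comparable between the times.

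Of the 35 lists, the genes of the cytosolic ribosome held the most changes. Of 78 measured ribosomal protein genes 28 changed between the times, all lower at 24 h, beside 0.299% of all genes. At 12 h 68 of the 78 rose in DECP cells and 0 fell, beside 4.05% and 1.91% of all genes. At 24 h 0 rose and 0 fell by limma, beside 1.76% and 0.916% of all genes. At an unadjusted limma p below 0.05, 5 were higher and 1 was lower at 24 h, and the share of all genes at that p is not given here. The authors' deposited values at 24 h called 3 of 77 of these genes higher and 1 lower, beside 614 and 463 of 11675 genes. Over the 78 genes tested by limma the median log2 difference was 0.10 at 24 h, 1.17 at 12 h and -1.04 between the times. Between the times 77 of the 78 were below 0, beside 7110 of 14733 genes.

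Rps15 (ENSMUSG00000063457, chromosome 10, 80292453 to 80294114, forward strand), a protein of the small subunit, had the smallest p of the group. It measured 3063, 2677, 3386 and 2642 TPM in DECP and 2914, 3339, 3229 and 3167 TPM in DECN cells at 24 h, with the groups overlapping. The 12 h libraries held 394, 323 and 438 TPM in DECP and 136, 165 and 128 TPM in DECN cells, without overlap. The difference between the times was -1.53 (SE 0.19, adjusted p = 0.00811). Rpl4 (ENSMUSG00000032399, chromosome 9, 64173375 to 64178666, forward strand), a large subunit protein, was 1 of 5 whose mean TPM at 12 h was at least 50% of that at 24 h. It had 3314, 2803, 3116 and 2786 TPM in DECP and 2610, 2855, 2749 and 3020 TPM in DECN cells at 24 h. Its 12 h values were 3307, 3960 and 4420 TPM in DECP and 1567, 1804 and 1595 TPM in DECN cells. The log2 difference was 0.10 (adjusted p = 0.7378) at 24 h and 1.23 (adjusted p = 9.324e-05) at 12 h, with -1.13 (SE 0.16, adjusted p = 0.00869) between the times. Large subunit gene Rpl8 gave -1.45 (adjusted p = 0.00869), and these 3 calls held without each library in turn. Rps24 (-1.63, adjusted p = 0.01782) lost its call without DECN 24 h replicate 2 (adjusted p = 0.0517). Rps10 (-1.45, adjusted p = 0.0195) lost it without DECN 12 h replicate 1 (adjusted p = 0.05893) or that DECN 24 h library (adjusted p = 0.0517), and Rpl37 (-1.72, adjusted p = 0.0289) without any 1 of 8 libraries (highest adjusted p = 0.07883). Over the left-out libraries the number of ribosomal protein genes called ranged from 9 to 37. It was 14, 18 and 11 without DECP 24 h replicate 2, 3 and 4, 17, 9 and 11 without DECN 24 h replicate 1, 2 and 4, and 13 each without DECN 12 h replicate 1 and 3. The list's median stayed between -1.16 and -0.86 under every alternative that kept these genes.

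The sheets themselves differ in the level of these genes. Ribosomal protein genes made up 17.9 to 21.5% of all TPM in DECP and 17.6 to 20.1% in DECN libraries at 24 h. At 12 h they made up 3.35 to 4.42% in DECP and 1.59 to 1.94% in DECN libraries. Libraries of the 12 h sheet also leaned to longer transcripts. The TPM-weighted mean transcript length was 1341 to 1401 bases in DECP and 1317 to 1358 in DECN libraries at 24 h, and 1937 to 2049 in DECP and 2083 to 2189 in DECN libraries at 12 h, so that at 12 h every DECP library was below every DECN library. The number of ribosomal protein genes called was again 28 after a trend on transcript length was removed, and 0 without the intensity trend. It was 6 with a separate fit for each sheet, and 46 with all 18 libraries and also from the authors' deposited tables. Among 321 other genes with transcripts under 800 bases and a mean TPM of at least 100, the median difference was 0.13 at 24 h, 0.31 at 12 h and -0.27 between the times. For 5 ribosomal protein genes the mean TPM at 12 h was at least 50% of that at 24 h. Among these 5 the median between the times was -0.85, and among the other 73 it was -1.05. Whether the low share of these RNAs at 12 h bears on the size of the difference was not tested.

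**Figure D3:**
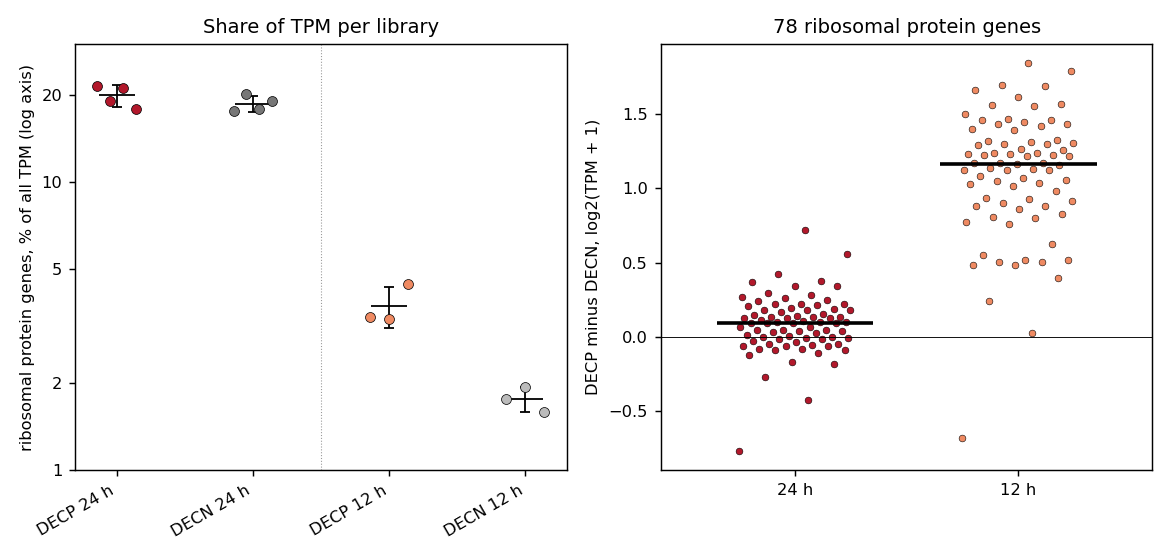
Left, the share of all TPM in cytosolic ribosomal protein genes per library on a log axis, with the mean and SD of each group. Right, DECP minus DECN of the 78 genes on the log2(TPM + 1) scale at 24 h and 12 h, with the median as a bar. The share is near 20% in all 24 h libraries and under 5% in all 12 h libraries, and the per-gene differences centre on 0.10 at 24 h and 1.17 at 12 h.

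Messenger RNAs of ribosomal proteins are known to begin with a pyrimidine tract that ties their translation to mTORC1. A run of at least 8 bases of C and T only, overlapping the 15 bases on either side of the start, was therefore sought after the promoters had been seen. It was in 13 of 24 promoters of the called ribosomal protein genes (54.2%, 19 of 28 genes found) and in 17.9% of all promoters. For 3 of the called genes the 50 bases before and after the RefSeq start on GRCm38.p6 are shown, 5′ to 3′ on the gene's strand, with the longest run of C and T that overlaps those bases around the RefSeq start in capitals.
Rps15 (chr10:80292381-80292480, forward strand): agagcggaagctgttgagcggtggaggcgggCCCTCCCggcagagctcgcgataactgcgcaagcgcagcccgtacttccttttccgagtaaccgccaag
Rpl4 (chr9:64173337-64173436, forward strand): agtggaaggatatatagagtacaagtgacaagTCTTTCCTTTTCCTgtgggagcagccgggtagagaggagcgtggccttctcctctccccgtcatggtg
Rps10 (chr17:27635195-27635294, reverse strand): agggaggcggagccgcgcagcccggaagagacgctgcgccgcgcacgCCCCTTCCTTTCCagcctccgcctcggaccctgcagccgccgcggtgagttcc
The run was 14 bases in Rpl4 and 13 in Rps10, and 7 in Rps15. A longer run in the printed Rps15 sequence, outside the bases searched, begins just past the start that GENCODE gives, so its count depends on which start is used. The E-box CACGTG, the letters MYC binds, was in 4 of these 24 promoters (16.7%, those of Rpl19 and Rpl34, which overlap) and in 7.15% of all, and in 1 of 12 promoters of genes higher at 24 h, that of Nras.

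Other genes of translation behaved less uniformly. Eef1b2 (ENSMUSG00000025967, chromosome 1, 63176825 to 63180486, forward strand), the exchange factor subunit of the elongation factor that brings aminoacyl-tRNA to the ribosome, was the 1 gene past the threshold at both times and between them. It stood at 3600, 3184, 3070 and 2849 TPM in DECP and 2149, 2401, 2119 and 2259 TPM in DECN cells at 24 h. At 12 h it stood at 2336, 2355 and 2462 TPM in DECP and 836, 892 and 707 TPM in DECN cells, and the groups did not overlap at either time. Its log2 difference was 0.51 (SE 0.10, adjusted p = 0.01374) at 24 h and 1.56 (SE 0.11, adjusted p = 2.177e-05) at 12 h, and the value between the times of -1.05 (SE 0.15, adjusted p = 0.00869) kept its call without each library in turn. Naca, a chaperone subunit at the ribosome exit and named after its values were seen, gave -1.26 (adjusted p = 0.02197). Of 39 translation factors Eef1b2 alone changed between the times, beside 0.299% of all genes lower at 24 h, while 10 rose at 24 h and 17 at 12 h, beside 1.76% and 4.05% of all genes. The list's median was 0.47 at 24 h, 0.69 at 12 h and -0.16 between the times.

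Ribosome biogenesis genes, whose products build ribosomes but are not part of them, had positive medians at both times. Of 65, 14 rose at 24 h, beside 1.76% of all genes, and 35 at 12 h, beside 4.05%, and 0 fell at either time. None of the 65 passed the threshold between the times by limma, against 16 lower at an unadjusted p below 0.05 and 7 lower when the authors' deposited tables were subtracted. The median was 0.65 at 24 h, 1.21 at 12 h and -0.45 between the times, with 53 of 65 below 0, beside 7110 of 14733 genes. Npm1, the nucleolar protein nucleophosmin, had 3717, 2327, 2439 and 2453 TPM in DECP and 1298, 1322, 1286 and 1154 TPM in DECN cells at 24 h. It had 894, 1012 and 1436 TPM in DECP and 289, 281 and 257 TPM in DECN cells at 12 h. DECP libraries were higher without overlap at both times, and the difference between the times was -0.90 (adjusted p = 0.1649). Ncl, nucleolin, gave 1.03 at 24 h and 1.24 at 12 h. Bysl, Imp3 and Nob1, which act in small subunit assembly, were past the threshold at 12 h only, with log2 differences of 0.35, 0.03 and 0.43 at 24 h and 1.95, 1.46 and 1.80 at 12 h.

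Several further genes differed early and not late. Sap18b (ENSMUSG00000061104, chromosome 8, 95825346 to 95826134, forward strand), a close copy of the Sin3 complex subunit gene Sap18, gave the lowest value of the 59, -3.70 (SE 0.51, adjusted p = 0.00869) between the times. It measured 259, 247, 199.5 and 172 TPM in DECP and 159, 194, 230.1 and 189 TPM in DECN cells at 24 h. In the 12 h sheet it stood at 27.1, 11.3 and 39.4 TPM in DECP and 0, 1.17 and 1.03 TPM in DECN cells. The DECN values at 12 h are at or near 0, where log2(TPM + 1) understates a difference. Reads of Sap18 and Sap18b cannot be told apart with certainty, and the call held without each library in turn but not with a separate fit for each sheet. Rpusd4, a mitochondrial pseudouridine synthase, was past the threshold at 12 h only, with -2.28 (SE 0.46, adjusted p = 0.04978) between the times. Pef1, a calcium-binding protein, gave -2.23 (SE 0.43, adjusted p = 0.0427). Their calls were lost without any 1 of 13 and 11 libraries (highest adjusted p = 0.1194).

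In the other direction, 4 of the named genes were lower in DECP cells at 12 h and past no threshold at 24 h by limma. Tlr6 (ENSMUSG00000051498, chromosome 5, 64952031 to 64960097, reverse strand), a Toll-like receptor for lipopeptides that acts with TLR2, measured 0.174, 0, 1.6 and 2.85 TPM in DECP and 0.366, 1.58, 0.681 and 1.27 TPM in DECN cells at 24 h. At 12 h it measured 1.18, 1.55 and 0.968 TPM in DECP and 19.3, 31.2 and 22.1 TPM in DECN cells. It was under 3 TPM in every library outside DECN at 12 h, and the difference between the times was 3.43 (SE 0.61, adjusted p = 0.0289). Yod1 (ENSMUSG00000046404, chromosome 1, 130717327 to 130724358, forward strand), a deubiquitinase, measured 8.21, 19.4, 9.95 and 11.8 TPM in DECP and 22.1, 19, 18.7 and 21 TPM in DECN cells at 24 h. Its 12 h values were 25.7, 12 and 23.3 TPM in DECP and 158, 154 and 163 TPM in DECN cells. The log2 difference was -0.73 (adjusted p = 0.1742) at 24 h and -2.97 (adjusted p = 0.0001146) at 12 h, with 2.24 (SE 0.41, adjusted p = 0.02925) between the times. In the authors' deposited table Yod1 had -0.69 at 24 h, which was past the threshold. Ccdc34, which encodes a coiled-coil protein, gave -0.10 (adjusted p = 0.7751) at 24 h and -1.16 (adjusted p = 0.0002736) at 12 h. Tfam, the packaging and transcription factor of mitochondrial DNA, had log2 differences of 0.53 at 24 h and -1.05 at 12 h, opposite in sign and without overlap at either time, with 1.58 (SE 0.30, adjusted p = 0.03436) between the times. These 4 calls were lost without any 1 of 5 libraries for Ccdc34, 9 for Yod1, 10 for Tlr6 and 12 for Tfam, with adjusted p up to 0.1065. Of 12 measured Toll-like receptor genes and partners Tlr6 was the 1 that changed, beside 0.102% of all genes higher at 24 h. Of the 59 genes 6 had a mean TPM under 5. The processed pseudogenes among the 59, 5 of them lower and 2 higher at 24 h, can share reads with their parent genes and are uncertain.

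**Figure D4:**
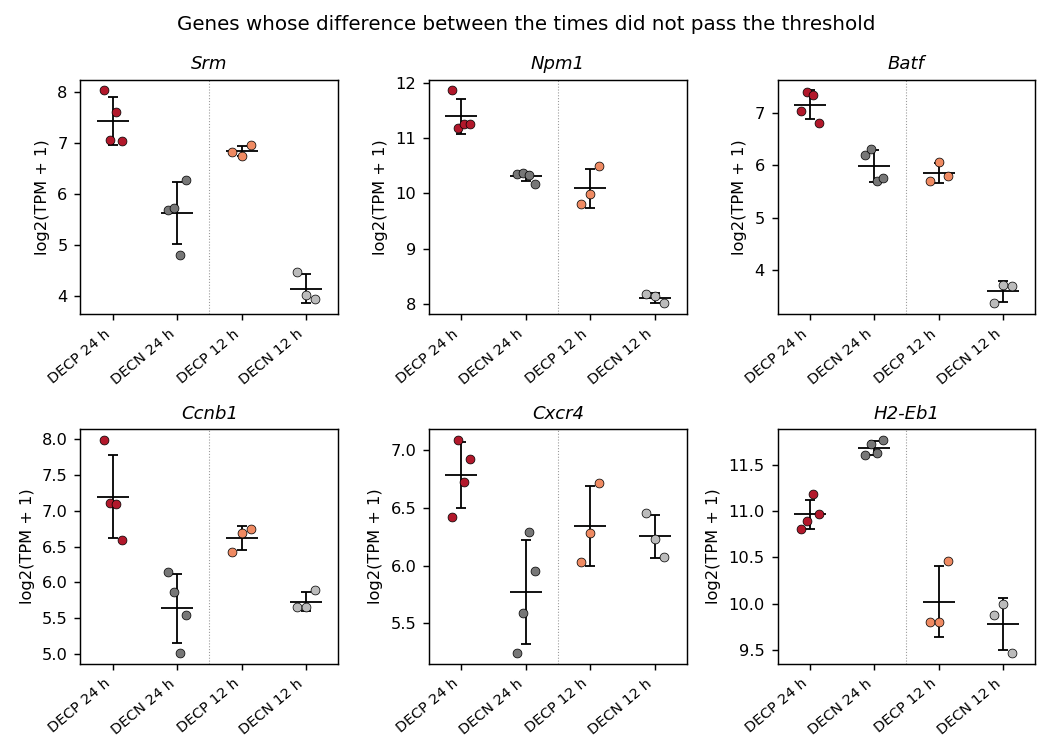
Each point is 1 library, on the log2(TPM + 1) scale, for 6 genes whose difference between the times did not pass the threshold by limma, with the mean and SD of each group. DECP libraries lie above DECN libraries at both times for Srm, Npm1, Batf and Ccnb1. Cxcr4 separates at 24 h only, with DECP higher, and H2-Eb1 at 24 h only, with DECP lower.

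A small number of genes differed late. Id3 (ENSMUSG00000007872, chromosome 4, 136143497 to 136145755, forward strand) encodes an inhibitor of the E proteins that drive the germinal centre programme. It measured 60.8, 82.5, 62.3 and 62.2 TPM in DECP and 139.8, 161, 181 and 145 TPM in DECN cells at 24 h. At 12 h it measured 35.8, 40.9 and 55.4 TPM in DECP and 34.5, 41.5 and 33.7 TPM in DECN cells. The groups stood apart at 24 h and overlapped at 12 h, and the log2 difference was -1.22 (SE 0.17, adjusted p = 0.003027) at 24 h and 0.24 (SE 0.20, adjusted p = 0.5823) at 12 h. The difference between the times was -1.46 (SE 0.26, adjusted p = 0.0289). Fcer2a (ENSMUSG00000005540, chromosome 8, 3681737 to 3694175, reverse strand), which encodes the low-affinity IgE receptor CD23, measured 39.9, 43.1, 34.4 and 50.8 TPM in DECP and 89.5, 76.7, 107 and 80.05 TPM in DECN cells at 24 h. In the 12 h sheet it measured 140.3, 207 and 202 TPM in DECP and 147, 136 and 116 TPM in DECN cells. It fell in DECP cells at 24 h (-1.05, adjusted p = 0.00741) and had 0.45 (adjusted p = 0.252) at 12 h, with -1.50 (SE 0.27, adjusted p = 0.02896) between the times. Cyba, a subunit of the NADPH oxidase and named after its values were seen, gave -0.59 (adjusted p = 0.01989) at 24 h, 0.38 (adjusted p = 0.1531) at 12 h and -0.97 (adjusted p = 0.0427) between the times.

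Of the genes that rose late, Tenm1 (ENSMUSG00000016150, chromosome X, 42527866 to 43429126, reverse strand), a cell surface protein of the teneurin family, measured 21.2, 33.2, 24.7 and 32.4 TPM in DECP and 7.48, 8.04, 10.2 and 9.32 TPM in DECN cells at 24 h. Its values at 12 h were 6.66, 6.12 and 5.23 TPM in DECP and 7.62, 6.62 and 7.17 TPM in DECN cells. All DECP libraries exceeded all DECN libraries at 24 h, and the difference between the times was 1.77 (SE 0.33, adjusted p = 0.03179). Nras (ENSMUSG00000027852, chromosome 3, 103058285 to 103067914, forward strand), a small GTPase of the RAS family, measured 79.6, 87.1, 84.2 and 97.4 TPM in DECP and 56.9, 58.3, 51.7 and 48.4 TPM in DECN cells at 24 h. Its 12 h levels were 632, 560.1 and 520.1 TPM in DECP and 641, 666 and 808 TPM in DECN cells. DECP libraries lay above DECN libraries at 24 h and below them at 12 h, without overlap. The log2 difference was 0.68 (adjusted p = 0.01211) at 24 h and -0.30 (adjusted p = 0.277) at 12 h, with 0.99 (SE 0.19, adjusted p = 0.04229) between the times. Erdr1, which lies where the sex chromosomes pair, has repeated copies and is uncertain in count, gave 0.99 (adjusted p = 0.006934) at 24 h, -0.59 (adjusted p = 0.08668) at 12 h and 1.59 (SE 0.25, adjusted p = 0.01633) between the times. Sntg2 (2.69, adjusted p = 0.01974) and the pseudogene Gm9985 (1.73, adjusted p = 0.0289), named after their values were seen, make up the 5. The call of Erdr1 held without each library in turn. Those of Id3, Fcer2a, Tenm1 and Nras were lost without any 1 of 9, 11, 11 and 12 libraries, with adjusted p up to 0.1117.

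Genes of division were higher in DECP cells mainly at 24 h, with no single member past the threshold between the times. Of 50 G2/M and mitosis genes 44 had a difference between the times above 0, beside 7623 of 14733 genes, with a median of 0.59. The list's median was 0.76 at 24 h and 0.06 at 12 h. By limma 0 of the 50 passed the threshold between the times, with 14 higher at an unadjusted p below 0.05, beside 710 of 14733 genes. When the authors' deposited tables were subtracted 1 was higher, beside 66 of 11675 genes. At 24 h 6 of them rose and 0 fell, beside 1.76% and 0.916% of all genes. At 12 h 0 rose or fell by limma, beside 4.05% and 1.91%. At an unadjusted p below 0.05, 6 were higher and 2 lower at 12 h, and the share of all genes at that p is not given here. The authors' deposited table at 12 h called 1 higher and 1 lower, beside 966 and 423 of 11675 genes. The 6 that rose at 24 h were the cyclin Ccnb1 (1.56, adjusted p = 0.01102), the survivin gene Birc5 (1.02, adjusted p = 0.008662), topoisomerase Top2a (0.72, adjusted p = 0.02102), Cks1b (1.06, adjusted p = 0.03724), Ckap5 (1.34, adjusted p = 0.03147) and Ska1 (1.89, adjusted p = 0.03456). Ccnb1 measured 253, 137, 136 and 95.2 TPM in DECP and 69.6, 57, 31.2 and 45.5 TPM in DECN cells at 24 h. At 12 h Ccnb1 measured 84.8, 102 and 106 TPM in DECP and 49.1, 49.3 and 58.3 TPM in DECN cells, so that DECP libraries were higher at both times, and the difference between the times was 0.67 (adjusted p = 0.656). G1/S and DNA replication genes had a smaller shift, with medians of 0.46 at 24 h, 0.16 at 12 h and 0.13 between the times.

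The 18 dark zone genes, some of them also on the mitosis list, had a median of 0.76 at 24 h, 0.05 at 12 h and 0.63 between the times. Between the times 16 of the 18 were above 0, beside 7623 of 14733 genes. None passed the threshold between the times by limma, with 3 higher at an unadjusted p below 0.05, beside 710 of 14733 genes. When the authors' deposited tables were subtracted 0 were higher, beside 66 of 11675 genes. Cxcr4, the chemokine receptor that holds cells in the dark zone and whose protein was sorted to be low, rose in DECP cells at 24 h (1.02, adjusted p = 0.03311) and had 0.09 (adjusted p = 0.9147) at 12 h. Bach2, a repressor of plasma cell fate, fell at 12 h (-1.11, adjusted p = 0.01286) and had -0.43 (adjusted p = 0.3231) at 24 h. The transcription factor gene Foxo1 had -0.19 (adjusted p = 0.8336) at 24 h and -1.20 (adjusted p = 0.05259) at 12 h. Of 18 light zone genes 2 changed between the times, Nfkbia and Fcer2a, both lower at 24 h, beside 0.299% of all genes. When the authors' deposited tables were subtracted 5 of the 18 were lower, beside 171 of 11675 genes. The list's median was -0.30 at 24 h, 0.28 at 12 h and -0.44 between the times.

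Of 17 genes of MHC class II presentation 7 fell in DECP cells at 24 h, beside 0.916% of all genes, and 1 at 12 h, beside 1.91%. A difference between the times below 0 was found for 16 of the 17, beside 7110 of 14733 genes. The median was -0.56 at 24 h, -0.01 at 12 h and -0.27 between the times. By limma 0 of the 17 passed the threshold between the times, with 7 lower at an unadjusted p below 0.05, beside 793 of 14733 genes. When the authors' deposited tables were subtracted 4 were lower, beside 171 of 11675 genes. H2-Eb1, a class II beta chain, had 1794, 1902, 2322 and 2009 TPM in DECP and 3119, 3394, 3163 and 3487 TPM in DECN cells at 24 h. At 12 h it had 889, 891 and 1409 TPM in DECP and 941, 1020 and 706 TPM in DECN cells, and the difference between the times was -0.96 (adjusted p = 0.1221). H2-DMa, a chain of the molecule that loads peptides, and H2-Ob, a chain of the molecule that restrains it, gave -0.62 (adjusted p = 0.01562) and -0.80 (adjusted p = 0.006333) at 24 h and 0.22 and 0.02 at 12 h. Class II genes are also expressed by myeloid cells. The summed macrophage markers were lower in DECP cells at both times, but that sum was nearly all Apoe. Like Apoe, C1qb (-0.41 at 24 h and -0.65 at 12 h) and C1qc (-1.33 and -0.69) had negative log2 differences at both times, while Cd68, Mertk and Lyz2 did not. The part of myeloid cells in the result was not tested. The B cell receptor genes Cd79a (-0.78, adjusted p = 0.02327) and Cd79b (-0.78, adjusted p = 0.02085) and the CD20 gene Ms4a1 (-0.73, adjusted p = 0.04234) fell at 24 h too, with -0.04, -0.40 and -0.51 at 12 h.

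**Figure D5:**
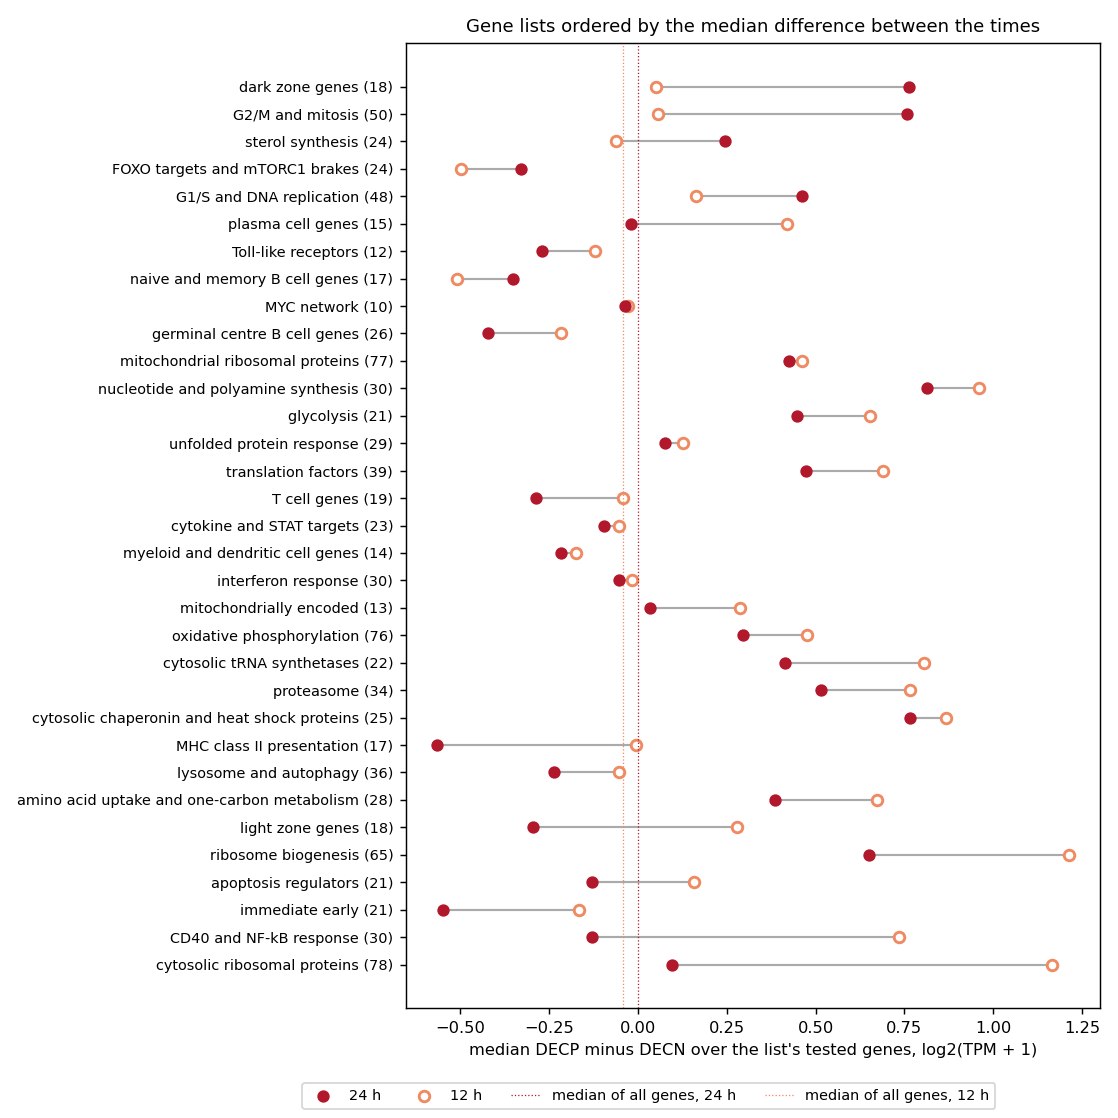
For each gene list with at least 10 tested genes (number in brackets) the filled point is the median DECP minus DECN at 24 h and the open point that at 12 h, on the log2(TPM + 1) scale, and dotted lines are the medians over all genes tested. Lists run from the highest median difference between the times, dark zone genes at 0.63, down to cytosolic ribosomal proteins at -1.04.

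Other genes differed in the same direction at both times and did not pass the threshold between them by limma. The polyamine gene Srm, spermidine synthase, had 259.5, 132, 193 and 130.3 TPM in DECP and 50.6, 51.9, 27.2 and 76.1 TPM in DECN cells at 24 h. The 12 h libraries had 112, 106 and 123 TPM in DECP and 21.2, 15.4 and 14.3 TPM in DECN cells. It rose at both times (1.80, adjusted p = 0.006333, and 2.69, adjusted p = 0.0003944), and the value between them was -0.89 (SE 0.44, adjusted p = 0.5278). Odc1, the rate-limiting enzyme of polyamine synthesis, gave 1.19 at 24 h and 1.15 at 12 h, with 0.03 (SE 0.32, adjusted p = 0.9875) between the times. Batf, a partner of JUN proteins, had 1.17 at 24 h and 2.25 at 12 h, with -1.09 (SE 0.30, adjusted p = 0.1608) between the times. When the authors' deposited tables were subtracted Batf gave -1.21, which was past the threshold. Myc, the transcription factor that marks selected cells, had 1.21 (adjusted p = 0.05642) at 24 h and 1.37 (adjusted p = 0.03936) at 12 h, with -0.16 (SE 0.48, adjusted p = 0.9498) between the times. The costimulatory ligand gene Cd86 fell at both, with -0.77 (adjusted p = 0.02561) and -0.76 (adjusted p = 0.03376). A p that misses the threshold does not show that the differences were equal.

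Of the lists with no member past the threshold between the times by limma, nucleotide and polyamine synthesis had medians of 0.81 at 24 h and 0.96 at 12 h. Of its 30 genes 10 and 13 had risen, beside 1.76% and 4.05% of all genes. Cytosolic chaperonin and heat shock genes had 0.77 and 0.87, with 13 and 15 of 25 risen. Among them were Hspd1 (1.26 and 1.44), Cct6a (1.32 and 1.76), Hspe1 (0.95 and 2.13) and Cct8 (0.69 and 1.79). Proteasome genes had 0.52 and 0.77, with 10 and 17 of 34 risen, and glycolysis genes 0.45 and 0.65, with 7 and 8 of 21 risen. Mitochondrial ribosomal proteins had 0.43 at 24 h, 0.46 at 12 h and -0.05 between the times. The medians between the times of the nucleotide, glycolysis and mitochondrial ribosomal lists changed sign over the alternatives (-0.15 to 0.08, -0.29 to 0.03 and -0.17 to 0.10), while those of the NF-kB (-1.01 to -0.62), mitosis (0.39 to 0.84), dark zone (0.22 to 0.74), class II (-0.38 to -0.19), proteasome (-0.38 to -0.11) and chaperonin lists (-0.42 to -0.15) did not.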

How the data were processed

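Libraries of sorted cells were prepared with Nextera XT, per the labels' protocols. This kit keeps no strand. The submitters' processing notes name kallisto 0.43.0 and GRCm38. The authors deposited a score per gene and library equal to TPM plus 1, as the file headers and the lowest value of 1 show, and 1 was subtracted here. Copies of a gene share reads in such estimates. The authors' deposited tables give mean normalized counts (a signal), log2 fold changes of DECN over DECP, p-values and adjusted p-values, made with a tool that the sources do not name. Their sign was turned round, and they were used only as an alternative.

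One limma 3.58.1 fit (R 4.3.3) with 4 group means on log2(TPM + 1) gave each contrast, two-sided, adjusted over 14733 genes, with a threshold of 0.05. Changes of low genes are understated. Read depth cannot be had from TPM. Added over genes, the authors' mean normalized counts came to 7029809 (DECP, 24 h), 6822477 (DECN, 24 h), 17314931 (DECP, 12 h) and 17673356 (DECN, 12 h). Named genes are up to 12 with the largest change in each direction (mean TPM of at least 5, no pseudogenes or immunoglobulin segments), a fixed panel, and 3 members of each of 35 lists by smallest p. Other names were chosen after their values were seen. The values of 1 gene of the panel are not reported here. The members and lists were chosen with earlier results of these data known. Coordinates are GENCODE M21's, 1-based on GRCm38. The fit was tested on simulated data. Alternatives changed the pseudocount, filter, scaling, weights, variance trend, libraries, index, replicate block and source of values, and 3 were added after the data were seen. Rapamycin-treated libraries entered only 1 alternative, and library numbers were taken from the titles.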

Additional observations from a re-analysis of the deposited data

Results flagged for a closer look

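The difference between the times was itself tested for each gene, and it was past the threshold for 59 genes by limma. The values for the named genes, as log2 difference at 24 h minus that at 12 h, were 3.43 for Tlr6, 2.24 for Yod1, 1.77 for Tenm1, 1.59 for Erdr1, 1.58 for Tfam, 1.06 for Ccdc34 and 0.99 for Nras. Below 0 they were -3.70 for Sap18b, -2.28 for Rpusd4, -2.23 for Pef1, -1.97 for Junb, -1.89 for Nfkb2, -1.50 for Fcer2a, -1.48 for Nfkbia, -1.46 for Id3 and -1.05 for Eef1b2. The ribosomal protein genes named were Rpl37 at -1.72, Rps24 at -1.63, Rps15 at -1.53, Rps10 at -1.45, Rpl8 at -1.45 and Rpl4 at -1.13.

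A library far from the other 3 of its group was found in 7 of 82 groups of 4 libraries, where chance gives about 1 in 20. Nfkb2 stood at 13.3 TPM in DECN 24 h replicate 3, against 18.5 to 19.1 in the others. Id3 stood at 82.5 TPM in DECP 24 h replicate 2, against 60.7 to 62.3, and Irf4, a plasma cell and selection factor, at 5.25 TPM in that library, against 0.571 to 1.30. Npm1 reached 3720 TPM in DECP 24 h replicate 1, against 2330 to 2450, and the cyclin gene Ccnd2 20 TPM in DECN 24 h replicate 3, against 3.79 to 6.47. Bcl6, the master regulator of the germinal centre, was at 10.3 TPM in DECP 24 h replicate 1, against 14.3 to 15.0, and at 22.1 TPM in DECN 24 h replicate 3, against 14.4 to 15.7. The part of these libraries in the results was measured by leaving out each in turn.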

How the results depend on the processing

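The number of genes whose difference changed between the times (59) fell to 5 without the intensity trend, 20 with a fit per sheet, 11 with TPM rescaled without ribosomal protein genes (6 higher and 5 lower at 24 h, against 15 and 44) and 0 against a minimum size of log2 0.5. It was 118 with all 18 libraries and 237 from the authors' deposited tables, and 43 to 87 under the other changes of pseudocount, filter, scaling, weights, index and length. With 24 h libraries of 1 second index only it was 0 and 2, where fewer libraries enter. The 24 h count (395) became 210 without the trend, 10 at the minimum size, 34 and 10 by index and 1077 in the authors' tables. The 12 h count (878) became 209 with a fit per sheet, 147 at the minimum size, 448 with 1 index only and 1389 in the authors' tables. Leaving out 1 library gave 20 to 75 genes between the times, 209 to 461 at 24 h and 536 to 933 at 12 h, and for Ly75 a log2 difference of 1.14 to 1.48 at 24 h and 1.53 to 1.82 at 12 h.

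With a replicate block by library number the counts were 0 between the times, 160 at 24 h and 529 at 12 h. The correlation of deviations of same-numbered DECP and DECN libraries was -0.05 to 0.02 at 24 h (4 pairs) and -0.01 to 0.06 at 12 h (3 pairs). Library numbers come from the titles, and same-numbered DECP and DECN libraries at 24 h carry different second indices. These values therefore cannot show whether DECP and DECN libraries came from the same hosts.

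The sign turned in 43 cases, all for 9 genes not past the threshold, with adjusted p of at least 0.7114. Over left-out libraries the range was -0.084 to 0.40 for Bcl6, -0.32 to 0.25 for Ccnd3, -0.20 to 0.064 for Cd83, -0.14 to 0.13 for Cd86, -0.18 to 0.66 for Hk2, -0.43 to 0.12 for Myc and -0.15 to 0.26 for Odc1. The authors' deposited tables gave -0.23 for Hk2. Quantile scaling gave -0.052 for Odc1, median centring 0.054 for Ccnd3 and 0.056 for Cd86, array weights 0.041 for Cd86 and -0.076 for Odc1, and a pseudocount of 5 gave 0.004 for Cd86. Removing the length trend gave 0.11 for Ccnd3. The single index TATCCTCT gave -0.017 for Bcl6, 0.15 for Ccnd3 and 0.02 for Ly75. The index AGAGTAGA gave -0.045 for Ccnb1, 0.10 for Cd86, -0.71 for Hk2, 0.13 for Myc and -0.10 for Odc1. The cause of these changes was not tested. Depth is unknown, and the number of libraries limits the precision.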
